A study of Mus musculus with 2 samples.

Results

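The cells described here are Cd163l1 Rora cells, a small group of lymphocytes in a single-cell RNA-seq map of the mouse aortic arch. Of 8155 cells that passed quality control, 67 were members, 63 in the ND (control) library and 4 in the HFD library. They were chosen by gene counts alone: a cell had at least 1 molecule (UMI) of Cd163l1, or at least 2 of Rora and 2 of Il7r with none of Trac, together with at least 1 UMI of Cd3d, Cd3e, Cd3g or Icos. Cells with Cd79a, with both Pecam1 and Cdh5, or with C1q genes at 0.2% or more of their UMIs were left out. Levels of the genes in this rule are therefore given as a description only.

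Both libraries came from male C57BL/6 mice without Apoe (Apoe-/-), 16 weeks old, fed for 12 weeks on chow (ND) or on a high-fat, high-cholesterol diet that also held sodium cholate (HFD). Every mouse, the controls included, lacked apolipoprotein E, which clears lipoproteins from blood. Each library pooled the perfused and enzyme-digested arches of 2 mice, so each diet was 1 sample. No test between diets was possible, no p-value is given, and the 95% intervals (exact Poisson for levels, exact binomial for shares) cover counting error only.

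Most T cells carry a receptor of alpha and beta chains. Gamma-delta T cells carry another pair of chains, settle in barrier and connective tissues early in life, and include a subset that makes interleukin 17 at once when interleukin 1 or interleukin 23 reaches them. That subset depends on the transcription factor encoded by Maf, on Blk, a Src-family kinase, and on Il7r, the receptor for interleukin 7. Cd163l1, also named Scart1, encodes a scavenger receptor known from such cells, and Rora encodes a nuclear receptor that type 17 T cells share with group 2 innate lymphoid cells, which have no antigen receptor.

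The members carried gamma-delta receptor transcripts, which the rule did not use. Trdc, the constant region of the delta chain, gave 225 UMIs in 52 of 63 ND members, or 1315 CPM (interval 1149 to 1498), where CPM is the UMIs of a gene scaled to a total of 1000000 UMIs over all cells of the group. In 180 alpha-beta T cells of the same library, gated on Trac and a CD3 chain, it gave 2 UMIs (3.42 CPM). Tcrg-C1, a constant region of the gamma chain, stood at 596 CPM (486 to 724) in 44 members against 8.54 CPM in alpha-beta T cells. Tcrg-C2 and Tcrg-C4 were found in 16 and 14 members. Counting the 4 constant genes together, 58 of 63 ND members held at least 1 UMI (92.1%, interval 82.4% to 97.4%), with a median of 6.0 UMIs and a highest value of 16 per cell. Among 18 NK cells Trdc stood at 16.5 CPM, and among all other kept ND cells at 3.71 CPM.

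Shares of cells with these genes were low in endothelium, which should lack them. Of 2405 ND cells with both Pecam1 and Cdh5, which mark it and had a median of 4268 UMIs against 2543 in the members, 0.707% held a Trdc UMI and 0.665% a Tcrg-C1 UMI. After every cell was thinned to 1000 UMIs, Trdc was left in 57.1% of ND members, 1.11% of alpha-beta T cells and 0% of 300 sampled endothelial-gated cells, and Tcrg-C1 in 41.3%, 0.556% and 0%.

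The variable segments were seen mainly on the delta side. Trdv4 was present in 23 ND members (29 UMIs, 169 CPM, interval 113 to 243) and in no alpha-beta T cell of that library. The gamma-chain segments were sparse, with 4 UMIs of Tcrg-V6, 2 each of Tcrg-V4, Tcrg-V1 and Trgv2, and 1 of Tcrg-V5. Tcrg-C3, Trdv1, Trdv5 and Trdv2-2 were at 0 UMIs. With so few segment reads, the gamma chain used by most members was not detectable at this depth.

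The constant genes sit in the T cell receptor loci of the mm10 build (GENCODE annotation). Trdc (ENSMUSG00000104876) lies on the plus strand at chr14:54142851-54148868, upstream of Trac at chr14:54220521-54224206, and Tcrg-C1 at chr13:19214103-19217024. Cd163l1 (ENSMUSG00000025461) is a protein-coding gene on the plus strand at chr7:140218267-140231145. Trdc and Trac thus lie within 1 locus.

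Transcripts of the other receptor were lower but not absent. Trac stood at 123 CPM (76 to 188) in ND members, from 21 UMIs in 12 cells, against 743 CPM in alpha-beta T cells, which were gated on it. Of those 12 members, 11 also held a gamma-delta constant UMI. Trbc1 stood at 333 CPM in members and 418 CPM in alpha-beta T cells, and Trbc2 at 415 and 888 CPM. In all, 45 of 63 ND members held a beta constant UMI, 41 of them beside a gamma-delta one. The coreceptors were near 0, with 5 UMIs of Cd4, 1 of Cd8b1 and 0 of Cd8a. Cd3g, a chain of the CD3 complex, was found in 51 members at 876 CPM against 479.8 CPM in alpha-beta T cells.

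**Figure D1:**
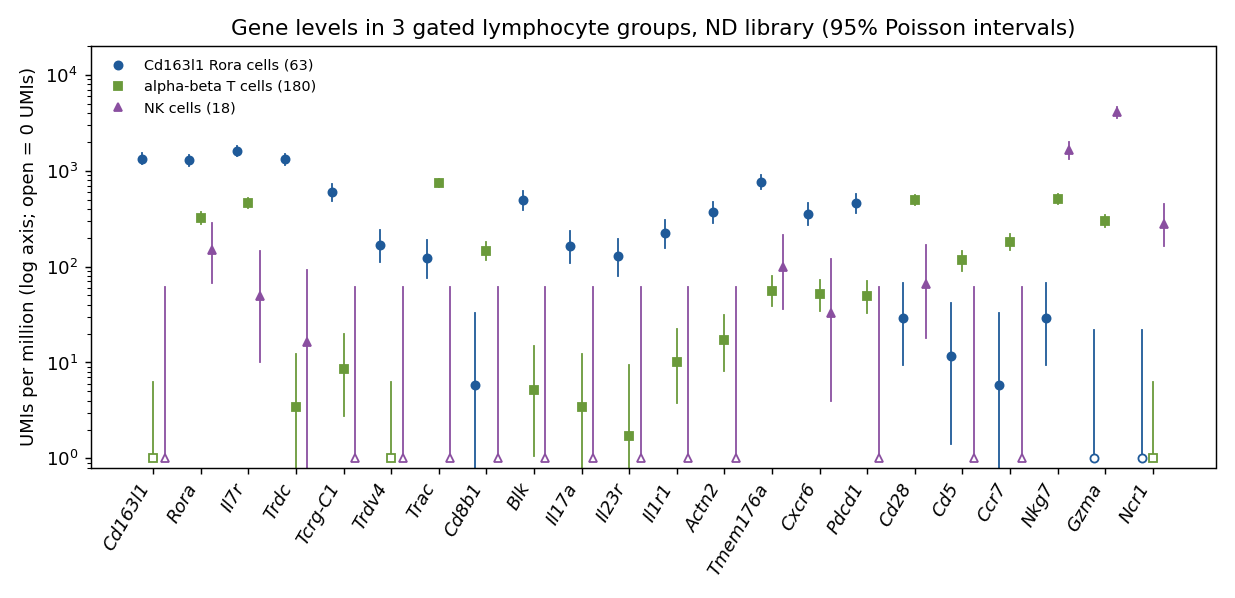
CPM (log axis) of 22 genes in ND members (circles), alpha-beta T cells (squares) and NK cells (triangles) with 95% Poisson intervals. Open symbols mark 0 UMIs and are drawn at 1. Trdc stood at 1315 in members and 3.42 in alpha-beta T cells, whereas Gzma was at 0 in members. Groups should be compared within a gene, not across genes.

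Among type 17 genes with enough UMIs to compare, most were higher in members than in alpha-beta T cells. In the ND library 2296 genes had at least 40 UMIs in both groups together, of which 178 (7.75%) were at least 2-fold higher in members and 216 (9.41%) at least 2-fold lower, with 5 CPM added to both sides. Of 21 listed type 17 genes, 8 could be compared. Of these, 7 were at least 2-fold higher and none lower, with a median log2 ratio of 3.77 beside -0.04 over all genes. The 2 gamma-delta receptor genes compared, Trdc and Tcrg-C1, had a median of 6.38. Without Cd163l1 and Rora, which belong to the rule, 5 of 6 type 17 genes were higher. Most of these, like Trdc and Tcrg-C1, met the 40 UMIs mainly through the members. Blk had 84 UMIs in members and 3 in alpha-beta T cells, and Actn2 had 63 and 10. Maf, with 95 and 184 UMIs, had a log2 ratio of 0.81. A gene could meet the minimum through either group alone, and listed genes below it were left out. The list counts, here and below, are therefore descriptions and no test.

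Blk was at 491 CPM in 41 ND members and 5.12 CPM in alpha-beta T cells. Il1r1, the receptor for interleukin 1, was at 222 CPM (157 to 305) against 10.2 CPM. Il23r, one chain of the interleukin 23 receptor, was at 129 CPM in 18 members and 1.71 CPM in alpha-beta T cells. For these 3 genes the counting intervals of the groups did not overlap.

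Maf stood at 555 CPM against 314 CPM. Tmem176a and Tmem176b, membrane proteins found in type 17 lymphocytes, stood at 765 and 736 CPM against 56.3 and 58.1 CPM. Actn2, an alpha-actinin, was at 368 CPM in members and 17.1 CPM in alpha-beta T cells. Ccr6, a chemokine receptor of many type 17 cells, gave 1 UMI.

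The cytokine itself was found in a minority of cells. Il17a gave 28 UMIs in 13 of 63 ND members (20.6%, interval 11.5% to 32.7%), or 164 CPM (109 to 236), against 2 UMIs in 180 alpha-beta T cells. It was left in 9.52% of members after thinning. Il17f and Il22 were at 0 UMIs in ND members, with intervals that reach 21.6 CPM. Tnfsf11, the ligand RANKL, stood at 333 CPM against 32.4 CPM, Ltb, or lymphotoxin beta, at 421 against 169 CPM, and Tnf at 134 against 51.2 CPM. Ifng gave 1 UMI in members and 88.8 CPM in alpha-beta T cells.

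Il17a and Il23r are shown here with their promoters because the nuclear receptor encoded by Rora binds sites that hold the half-site AGGTCA. Windows from 250 bases before to 50 after the start of transcription were taken from RefSeq (GRCm38.p6). The half-site, searched on both strands (AGGTCA or TGACCT), was present in 16.3% of all 32851 windows. Of the 21 type 17 genes, 17 had at least 1 window, and 7 held it in at least 1. That count is per gene and the 16.3% is per window, so the 2 should not be compared. Capitals mark the half-site, which occurs 1 time at Il17a (chr1:20730655-20730954, plus strand) and 2 times at Il23r (chr6:67491806-67492105, minus strand).
Il17a: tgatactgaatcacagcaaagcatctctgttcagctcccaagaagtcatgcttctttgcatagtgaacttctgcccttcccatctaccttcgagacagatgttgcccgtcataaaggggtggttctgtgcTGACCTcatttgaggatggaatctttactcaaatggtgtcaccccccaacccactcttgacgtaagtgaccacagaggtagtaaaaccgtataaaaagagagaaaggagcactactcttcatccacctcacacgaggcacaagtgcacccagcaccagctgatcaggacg
Il23r: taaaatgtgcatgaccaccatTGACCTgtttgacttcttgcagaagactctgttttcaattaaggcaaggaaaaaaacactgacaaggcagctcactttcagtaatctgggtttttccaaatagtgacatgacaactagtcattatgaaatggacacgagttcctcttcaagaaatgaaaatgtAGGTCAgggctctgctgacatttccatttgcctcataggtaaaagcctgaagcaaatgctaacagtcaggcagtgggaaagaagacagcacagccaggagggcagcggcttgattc
A match of letters is no evidence of binding, and these data hold no measurement of it. Cd163l1, Rora and Tmem176a had no match in their windows, which says only that these letters do not occur there.

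Beyond the lists, the genes that led the comparison in both libraries were partly the same and partly others. With at least 20 UMIs in members and 4 in each library, 607 genes could be compared, of which 43 (7.08%) were at least 2-fold higher in both libraries and 2 (0.329%) lower. This minimum was set on members only, so genes near 0 in the members of either library, such as Cd6 and Gzma, could not enter, and the balance of higher and lower genes is not a result. The HFD side of this comparison rested on 4 members, so it is thin. After Blk, Cd163l1, Tcrg-C1 and Tmem176b, the next in order was Igf1r, the receptor for insulin-like growth factor 1, at 444 CPM in ND members against 46.1 CPM in ND alpha-beta T cells.

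Cxcr6, a chemokine receptor of tissue lymphocytes, stood at 356 CPM in ND members and 51.2 CPM in alpha-beta T cells, and at 294 and 38.7 CPM in the HFD library, where all 6 members' UMIs came from 1 cell. Ramp1, which forms the receptor for the neuropeptide CGRP, stood at 409 and 56.3 CPM in ND and at 489.8 and 77.3 CPM in HFD. Pdcd1, the checkpoint receptor PD-1, stood at 456 and 49.5 CPM in ND and at 343 and 85 CPM in HFD, where all 7 members' UMIs came from 1 cell. The other leading genes were Tmem176a, Ckb, Trdc, Clcn3, Podnl1, Capg, Dgat1, Arl5c, Rora, Il7r, Cish and Samsn1. The 2 lower genes, Trbc2 and Jpt1, fell outside the naming rule and are named because they are so few.

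The ND library alone, a comparison added after the data were seen, placed further genes near the top. Krt83, a hair keratin gene, gave 38 UMIs in 23 members against 2 UMIs in alpha-beta T cells. Il2ra, a chain of the high-affinity interleukin 2 receptor, stood at 205 CPM against 17.1 CPM, and Hk2, a hexokinase, at 304 against 27.3 CPM. S100a9 and S100a8, neutrophil genes, also ranked there, but 111 of the 113 S100a9 UMIs came from a single cell.

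Several receptors for cytokines were higher in members. Leaving out Il7r, 11 such genes were compared in the ND library, of which 5 were at least 2-fold higher in members and 2 lower, with a median log2 ratio of 0.88. Il7r, which the rule uses, was at 1601 CPM (1417 to 1802), and Il2rb, shared by the receptors for interleukins 2 and 15, at 830 CPM against 355 CPM. Il18r1, the interleukin 18 receptor, stood at 538 CPM against 111 CPM, and Ifngr1 at 1151 against 512 CPM. The 2 lower genes were Il6st and Il21r.

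Genes of tissue residency were higher or alike, and genes of naive T cells lower. Of 9 residency genes compared, 4 (Itgb7, Cxcr6, Rgs2 and Crem) were at least 2-fold higher and none lower, with a median log2 ratio of 0.82. Of 6 naive and recirculating genes, none was higher and 4 (Ccr7, Lef1, S1pr1 and Klf2) were lower, with a median of -1.63. Ccr7, which guides T cells to lymph nodes, gave 1 UMI in members and 181 CPM in alpha-beta T cells.

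Several genes of alpha-beta T cell signalling were low. Leaving out Icos, which the rule uses, 11 genes of that list were compared, with a median log2 ratio of -2.29. Of these, 6 were at least 2-fold lower and 1, Zap70, higher (310 against 111 CPM). Cd28, the main costimulatory receptor, stood at 29.2 CPM (5 UMIs in 2 cells) against 495 CPM. Lck, the kinase of the coreceptors, gave 3 UMIs against 251 CPM, Cd5 gave 2 UMIs against 116 CPM, and Cd6 was at 0 UMIs against 152 CPM. With 0 UMIs set at a floor of 3 UMIs over the group, Cd6 was at least 8.67-fold lower in members. Lat and Thy1 did not differ by 2-fold, at 391 and 374 CPM against 352 and 423 CPM.

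**Figure D2:**
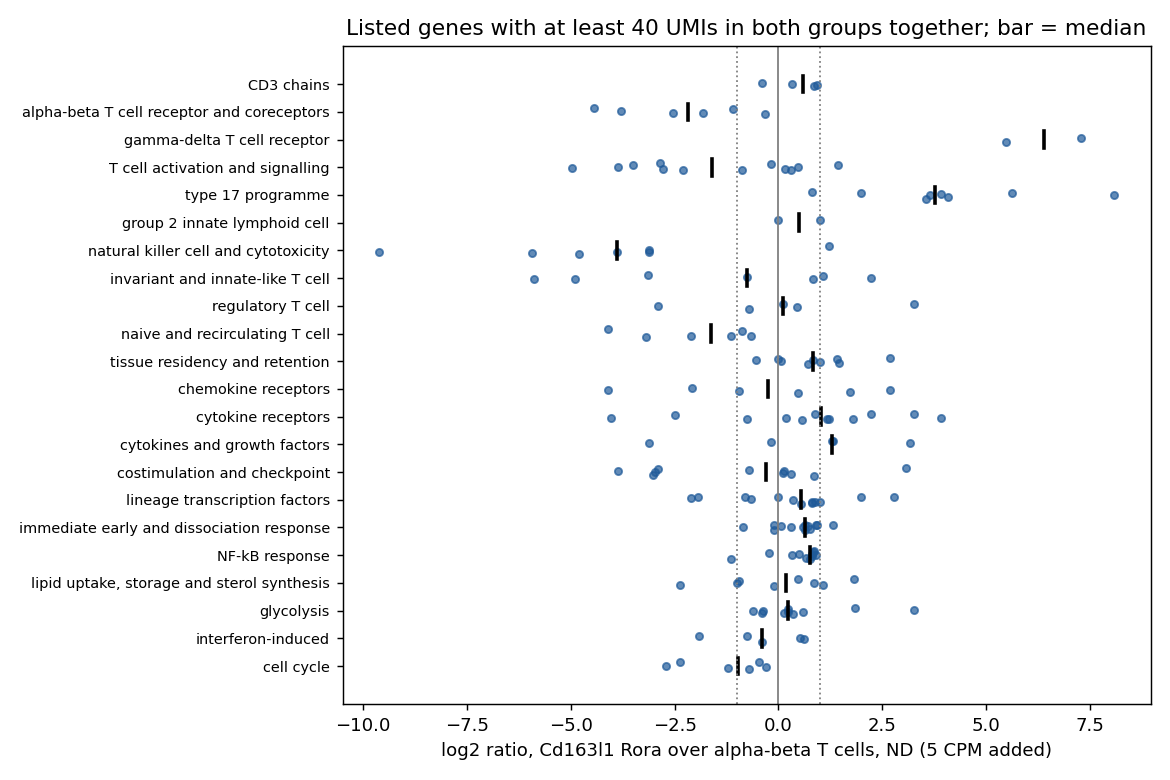
Log2 ratio of members over alpha-beta T cells in the ND library, with 5 CPM added, for each listed gene with at least 40 UMIs in both groups together. Points are genes, black bars are list medians and dotted lines mark 2-fold. The type 17 genes had a median of 3.77 and the NK and cytotoxicity genes of -3.89. A gene could meet the minimum through either group alone, so the medians describe only the genes compared.

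Cytotoxic and NK genes were nearly absent from ND members. Ccl5 was at 0 UMIs against 3895 CPM in alpha-beta T cells, at least 222-fold lower against the floor, and Gzma was at 0 UMIs against 299 CPM, at least 17-fold lower. Ncr1, Klrb1c, Klrd1 and Eomes were also at 0. Nkg7 gave 5 UMIs, all in 1 cell. Il2rb was the only gene of 7 compared from this list that was at least 2-fold higher in members, and the other 6 were lower.

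Zbtb16, which encodes PLZF, the factor of innate-like T cells, was found in 15 ND members at 99.3 CPM against 6.83 CPM. With 17 UMIs in members and 4 in alpha-beta T cells, it was below the 40 UMIs asked of a compared gene. Of the cell cycle genes, Top2a gave 2 UMIs in 1 ND member and Mki67 none. H2afz stood at 841 CPM in 49 ND members against 1156 CPM in alpha-beta T cells. Hmgb2 stood at 584 CPM in 45 ND members against 968 CPM. Junb, an immediate early gene that tissue digestion can also induce, stood at 6246 CPM against 3651 CPM, and of 13 genes in that list only Fosb was at least 2-fold higher. Of 11 NF-kB response genes, none was at least 2-fold higher and 1, Traf1, was lower.

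Chemokine receptors and transcription factors held genes that stood well apart from alpha-beta T cells. Of 6 chemokine receptors compared, 2 (Cxcr6 and Ccr2) were at least 2-fold higher. Ccr2, which draws cells to inflamed tissue, stood at 316 CPM in 28 ND members against 92.2 CPM in alpha-beta T cells. Of 13 lineage transcription factors, Ikzf3 and the rule gene Rora were higher, with Ikzf3, which encodes Aiolos, at 555 CPM against 76.8 CPM, and Id3 and Lef1 were lower. Of 9 costimulation and checkpoint genes outside the rule, Pdcd1 was higher, and Cd28, Cd27, Cd40lg and Tnfrsf4 were lower. Cd27, a receptor that is low on interleukin 17-producing gamma-delta T cells, gave 3 UMIs in members against 179 CPM.

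Metabolic genes were few. Of 10 glycolysis genes compared, 2 (Hk2 and Pfkp) were at least 2-fold higher and none lower, with Pfkp, a phosphofructokinase, at 362 CPM against 97.3 CPM. Of 8 genes of lipid uptake, storage and sterol synthesis, 2 (Fabp4 and Lpl) were at least 2-fold higher. Lpl, or lipoprotein lipase, gave 29 UMIs in 5 members, and Fabp4 is also the leading gene of the endothelial list given last.

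The remaining lists gave smaller counts. Leaving out Trac, which the rule and the gate of alpha-beta T cells used, 4 of 5 alpha-beta receptor and coreceptor genes were at least 2-fold lower (median log2 ratio -1.82). Of 4 CD3 chains, 3 of them in the rule, none passed 2-fold. Of 7 genes of innate-like T cells, Il18r1 and Fcer1g were higher and Slamf6, Ly6c2 and Plac8 lower, and Fcer1g rested on 5 members. Of 5 regulatory T cell genes, Il2ra was higher and Tnfrsf4 lower, and Foxp3 was at 0 UMIs in members. Of 5 interferon-induced genes, none was higher and Ifi27l2a was lower, at 158 CPM against 608 CPM. Of 6 cell cycle genes, Top2a, Stmn1 and Tubb5 were lower. Of 2 group 2 innate lymphoid genes compared, neither passed 2-fold.

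The members fell into 2 unequal parts by the branch of the rule that admitted them. Of 63 ND members, 57 had Cd163l1, and 56 of these 57 held a gamma-delta constant UMI (98.2%, interval 90.6% to 100%). The other 6 came in through Rora and Il7r, and 2 of these 6 held one. Trdc stood at 1451 CPM in the first part and at 0 UMIs in the second, where the interval reached 229.7 CPM. The second part rests on 16062 UMIs in all.

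Those 6 cells were unlike each other. The first held 6 UMIs of Il17a and 4 of Blk but no gamma-delta constant UMI. The second held 7 UMIs of Trbc1, 3 of Cd4 and 12 of Fabp4, a fatty acid binding gene of capillary endothelium. The third, with no CD3 chain, held 3 UMIs of Gata3, 4 of Il1rl1 and 12 of Calca, together with 1 UMI each of Tcrg-C1 and Tcrg-C4. The fourth held 111 UMIs of S100a9 and 68 of S100a8. The fifth held single UMIs of Tcrg-C2 and Tcrg-C4. The sixth, also without a CD3 chain, held 4 UMIs of Gata3, 1 of Il1rl1 and 6 of Areg.

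Gata3, Il1rl1 (the interleukin 33 receptor) and Areg are genes of group 2 innate lymphoid cells, and those 2 members without a CD3 chain both held at least 2 genes of that list. Such pairs were found in 14 ND members in all, 12 of them with Cd163l1, where Calca was found in 12 cells and Gata3 in 9. Il13, Il5 and Il4 were at 0 UMIs. The label of unconventional T cells thus held for the Cd163l1 part by its receptor transcripts, and not for every cell of the Rora and Il7r part.

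**Figure D3:**
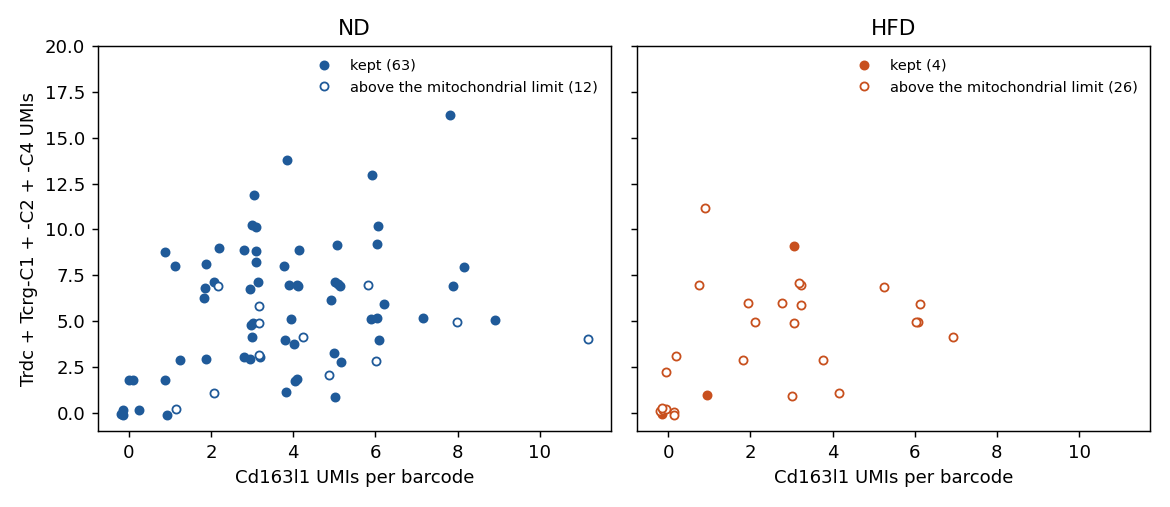
Summed UMIs of Trdc, Tcrg-C1, Tcrg-C2 and Tcrg-C4 (vertical) against Cd163l1 UMIs (horizontal) for each barcode that met the gene rule, with a small jitter, in ND (left) and HFD (right). Filled circles were kept and open circles lay above the mitochondrial limit. Kept ND cells reached 16 gamma-delta UMIs, and 2 of the 4 kept HFD cells held none.

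Values close to the rule's thresholds were as follows. In ND, 5 members had 1 UMI of Cd163l1 and 6 had 2, with a median of 4.0 and a highest value of 9. Just outside, 8 ND cells had at least 1 UMI each of Rora and Il7r, with no Cd163l1 or Trac, and passed the other steps. Of 74 ND cells with Cd163l1, 17 were not members, 13 of them because they held both Pecam1 and Cdh5. All 13 held a gamma-delta constant UMI, and their median depth was 11894 UMIs. Another 9 ND cells with a CD3 chain and Trdc met the exclusions without being members.

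The 4 HFD members were not alike, and only 1 resembled the ND cells. It held 3 UMIs of Cd163l1, 4 of Trdc, 4 of Tcrg-C1, 1 of Trdv4 and 4 of Blk in 3999 UMIs. The deepest, with 6438 UMIs, held 868 of Hbb-bs, the main adult beta-globin, with 3 of Il17a and 3 of Il17f and no gamma-delta constant UMI. Another, without a CD3 chain, held 6 UMIs of Rora, 19 of Ccl5 and 5 of Xcl1. The remaining cell held 1 UMI of Cd163l1, 1 of Tcrg-C2, 4 of Trbc1 and 3 of Trbc2. The last 3 named also held Top2a, a gene of dividing cells, with 6, 2 and 4 UMIs.

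Members were scarcer in the HFD library. They made up 1.16% of kept ND cells (0.895% to 1.49%) and 0.146% of kept HFD cells (0.0398% to 0.373%), a share 7.97 times higher in ND (2.96 to 30.1). Ptprc, which encodes the leukocyte antigen CD45, was found in 42 ND members and all 4 HFD members, and of cells with a Ptprc UMI they made up 2.74% and 0.514%. Alpha-beta T cells were scarcer as well, at 3.32% and 0.73%, a share 4.55 times higher in ND (2.86 to 7.63). NK cells stood at 0.332% and 0.11%, a ratio of 3.03 with an interval that includes 1 (0.886 to 16.1). Among the 3 gated lymphocyte groups together the members' share was 24.1% in ND (19.1% to 29.8%) and 14.8% in HFD (4.19% to 33.7%), and these intervals overlapped.

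The mitochondrial limit removed most of these cells in HFD and few in ND. With the 30% limit lifted and every other step kept, which was tried after the data were seen, 12 more ND barcodes and 26 more HFD barcodes met the rule. The limit thus kept 84% of ND members (73.7% to 91.4%) but 13.3% of HFD members (3.76% to 30.7%). It kept 72.6% and 8.89% of alpha-beta T cells, and 70.2% and 27.5% of all barcodes with enough genes and UMIs. The HFD barcodes above it had a median mitochondrial share of 41.5%, and the ND ones of 35.1%.

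Without the limit the members made up 0.972% of ND barcodes (75 of 7715) and 0.301% of HFD barcodes (30 of 9954), a share 3.23 times higher in ND (2.09 to 5.1). Alpha-beta T cells were then 1.42 times higher in ND (1.18 to 1.71) and NK cells 0.999 times (0.561 to 1.76). Members made up 23.2% of members and alpha-beta T cells together in ND (18.7% to 28.2%) and 11.8% in HFD (8.08% to 16.4%), and these intervals did not overlap. Diet, pool, tissue content and library preparation cannot be told apart with 1 library each. The libraries differed in tissue content. Listed genes of airway club cells summed to 15611 CPM in all other kept ND cells and 0.582 CPM in all other kept HFD cells. Whether members came from airway tissue was not tested.

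**Figure D4:**
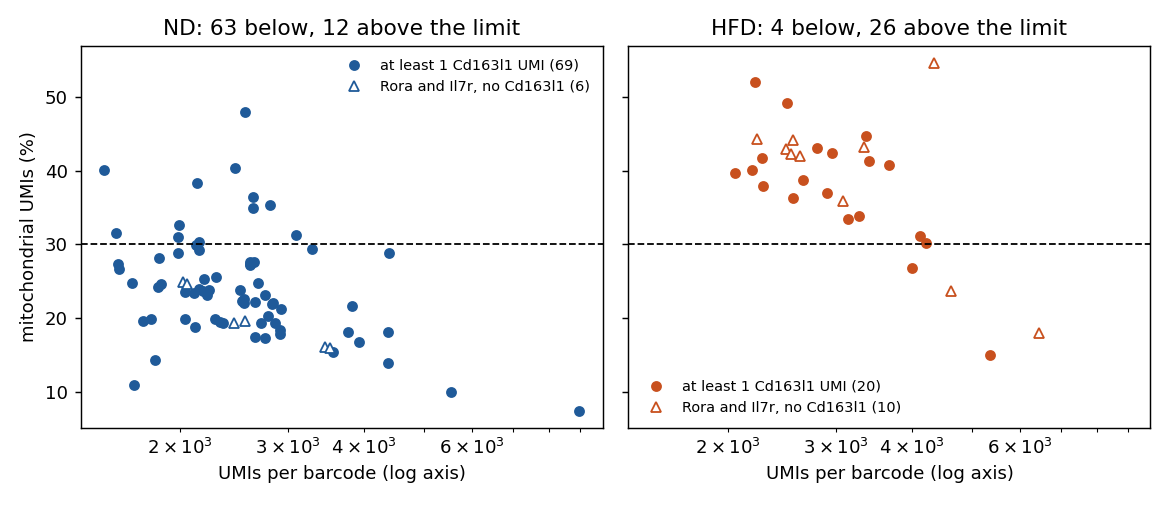
Mitochondrial share of UMIs (vertical) against UMIs per barcode (horizontal, log axis) for every barcode that met the gene rule, in ND (left) and HFD (right). Filled circles had Cd163l1, open triangles came in through Rora and Il7r, and the dashed line is the 30% limit. In ND 63 barcodes lay below and 12 above it, and in HFD 4 below and 26 above.

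**Figure D5:**
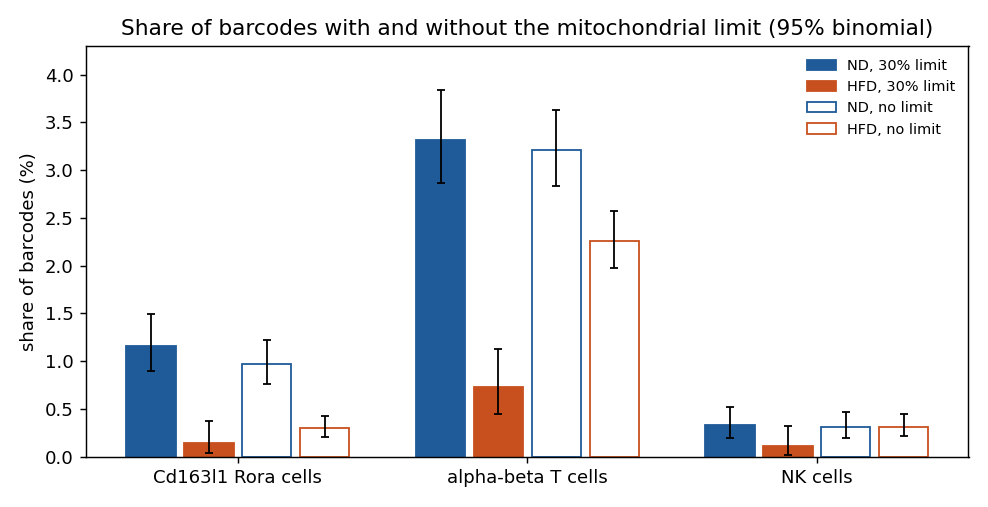
Share of barcodes (%) that were members, alpha-beta T cells or NK cells, in ND and HFD, with the 30% mitochondrial limit (filled bars) and without it (open bars). Error bars are 95% binomial intervals. Members stood at 1.16% and 0.146% with the limit and at 0.972% and 0.301% without it.

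Above the limit, 20 of the 26 HFD barcodes (76.9%, interval 56.4% to 91%) and 11 of the 12 ND barcodes held a gamma-delta constant UMI. In HFD these were all 18 with Cd163l1 and 2 of the 8 without it, and in ND all 12 had Cd163l1. In barcodes with Cd163l1 and no limit, 69 in ND and 20 in HFD, levels were taken as CPM over the UMIs left without mitochondrial, ribosomal protein and haemoglobin genes. Trdc then stood at 2354 in ND (2072 to 2663) and 1752 in HFD (1313 to 2292), a log2 ratio of HFD over ND of -0.43 (-0.88 to 0.01).

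Tcrg-C1 and Blk differed by 0.28 (-0.29 to 0.81) and 0.15 (-0.50 to 0.75) on the log2 scale. Il17a was found in 14 ND and 4 HFD barcodes of this kind, at 233 (151 to 345) and 429.8 (229 to 735), a log2 ratio of 0.88 (-0.21 to 1.90). A difference of these genes between diets was not detectable at this depth. Il1r1, with 44 ND and 3 HFD UMIs, was lower in HFD by a log2 ratio of -2.05 (-4.38 to -0.41). Over all members without the limit it differed by -1.76 (-3.46 to -0.43), and in alpha-beta T cells by -1.44. In the Cd163l1 barcodes Tmem176a was higher by 0.63 (0.19 to 1.07), and over all members without the limit it differed by 0.28 (-0.15 to 0.70). Fabp4 was higher there by 1.45 (1.07 to 1.81), and in all other kept cells, where it is abundant, it differed by 0.43 on the CPM scale of all UMIs. In kept alpha-beta T cells it was higher by 2.56 on that scale.

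Above the limit, the Rora and Il7r part was larger in HFD than in ND, with 8 of 26 barcodes against 0 of 12. Of those 8, 6 held at least 2 genes of the group 2 innate lymphoid list, and 4 of them had neither a CD3 chain nor a gamma-delta constant UMI. Over all 10 HFD barcodes of this part without the limit, Areg, which encodes the growth factor amphiregulin, gave 18 UMIs in 3 barcodes, Calca 27 in 5, Il1rl1 10 in 3 and Gata3 8 in 4. The 6 ND cells of this part held 6, 15, 5 and 7 UMIs of these genes, and the log2 ratios of HFD over ND had intervals that span 0 (Areg 0.95, -0.45 to 2.57). Hes1, a Notch target, gave 30 UMIs in 5 of the HFD barcodes and 0 in the 6 ND cells. In the Cd163l1 part without the limit, Areg was higher in HFD by 3.99 (1.72 to 7.24), from 2 ND and 9 HFD UMIs, and Hes1 by 2.19 (0.59 to 3.85), from 7 and 9 UMIs, each in 3 HFD barcodes. Of the 9 HFD Hes1 UMIs, 6 came from 1 kept barcode. Above the limit alone, the ratios were 2.28 for Areg (-0.57 to 7.74) and 0.70 for Hes1 (-2.94 to 6.41), and both intervals span 0. The rule therefore took in unlike cells in different proportions in the 2 libraries, and levels over all members mix the parts.

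Among kept cells, the comparison of HFD with ND rested on 20417 UMIs in HFD against 171137 in ND, and the median gene compared had 10 HFD UMIs. Of 417 genes with at least 40 UMIs and 4 in each library, 28 (6.71%) were at least 2-fold higher in HFD members and 45 (10.8%) at least 2-fold lower. The balance turned with some settings. With at least 3 UMIs of Rora and Il7r, 44 were higher and 13 lower, and with a minimum of 20 UMIs, 92 and 45. Genes with 20 to 40 UMIs, at least 4 of them in HFD, can hardly come out 2-fold lower. With the ND total so much larger, the same holds for genes not far above the minimum of 40. The balance of 28 higher and 45 lower is therefore not a result. On the scale without mitochondrial, ribosomal protein and haemoglobin genes, 41 were higher and 32 lower. Without the mitochondrial limit, on CPM of all UMIs, 9 were higher and 86 lower. Median mitochondrial shares of members were then 40.4% in HFD and 23.4% in ND, which lowers the other genes of HFD on that scale. Without the limit and without mitochondrial, ribosomal protein and haemoglobin genes, 21 were higher and 37 lower. The 10 largest rises were Tuba1b, Tubb5, Hmgb1, Clic1, Nap1l1, Hmgb2, Sumo2, Vim, Ptma and Gapdh. Tuba1b, a tubulin, stood at 1567 CPM in HFD members and 123 CPM in ND members, a log2 ratio of 3.67 (2.84 to 4.54), with 17 of its 32 HFD UMIs in 1 cell. Hmgb2, a chromatin protein abundant in dividing cells, stood at 2253 and 584 CPM, a log2 ratio of 1.95 (1.41 to 2.46). In alpha-beta T cells the same 2 genes differed by 1.35 and 1.52, and in all other kept cells by 0.18 and -0.43. Of the 46 HFD Hmgb2 UMIs, 17, 14 and 14 lay in the 3 members with Top2a. Without the mitochondrial limit and without mitochondrial, ribosomal protein and haemoglobin genes, the log2 ratios were 1.87 for Tuba1b, 1.57 for Tubb5 and 0.79 for Hmgb2, and among barcodes above the limit alone Tubb5 differed by -1.12 (-2.92 to 0.73) and Hmgb2 by -0.43 (-1.32 to 0.51).

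The 10 largest falls were Cd163l1, Trdc, Zfp36l1, Psap, Il7r, Lmo4, Fabp4, Pim1, D16Ertd472e and Kdm6b, of which Cd163l1 and Il7r belong to the rule. Without the mitochondrial limit the ratios of Lmo4 and Fabp4 turned, to 0.16 and 0.75. Trdc stood at 196 CPM in HFD members, all 4 UMIs in 1 cell, and 1315 CPM in ND members, a log2 ratio of -2.75 (-4.63 to -1.37), beside the -0.43 given above for Cd163l1 barcodes without the limit. Pim1, a kinase induced by cytokines, stood at 294 and 1221 CPM, a log2 ratio of -2.06, and differed by -0.95 in alpha-beta T cells. All 6 HFD UMIs of Pim1 came from 1 cell, as did all 4 of Lmo4. Genes with 3 or fewer UMIs in ND members were led by Pclaf, a replication gene (22 HFD UMIs and 0 in ND), Ccl5 (19 and 0) and Yae1d1 (16 and 2), and the Ccl5 and Yae1d1 UMIs each came from 1 cell. Those with 3 or fewer in HFD were led by Retnla (236 ND UMIs in 3 cells), Ramp3 (185 in 50 cells) and Cd74 (175 in 7 cells).

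Without the mitochondrial limit, on the scale that leaves out mitochondrial, ribosomal protein and haemoglobin genes, 726 genes could be compared, 21 at least 2-fold higher in HFD and 37 lower. Trdc, which the rule did not use, was lower in HFD by -0.85 (-1.30 to -0.42) over these members, which mix both branches of the rule. The rule's own genes, given as a description, differed by -0.68 for Cd163l1 (-1.09 to -0.30), -0.36 for Il7r (-0.71 to -0.02), -0.06 for Rora (-0.41 to 0.29) and -0.10 for Cd3g (-0.54 to 0.32). Of 9 type 17 genes compared there, none was at least 2-fold higher and 1, Il1r1, was lower.

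RNA of other cell types was present in a few members. In ND, 6 of 63 members held at least 20 UMIs of the marker list of another cell type, and in HFD 1 of 4 did, with erythroid genes. The neutrophil list summed to 1116 CPM in ND members and 5.12 CPM in alpha-beta T cells, with S100a9 the most abundant gene and Lcn2 at 0, and 188 of its 191 UMIs came from 1 cell. The macrophage list summed to 614 CPM against 365 CPM, led by Lyz2 (87 of 105 UMIs), with C1qc and Pf4 at 0, and 99 UMIs came from 3 cells. The B cell list summed to 1735 CPM against 1072 CPM, led by Cd74, with Cd79a, Ms4a1 and Ly6d at 0, and 277 of 297 UMIs came from 3 cells.

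The endothelial list summed to 1391 CPM in ND members, led by Fabp4 with 146 of 238 UMIs, and to 392 CPM in HFD members, where 6 of its 10 genes were at 0. The fibroblast list summed to 707 CPM in ND members, led by Col1a2, with Pdgfra at 0 and 95 of 121 UMIs in 1 cell, and to 147 CPM in HFD members. The smooth muscle list gave 4 UMIs in ND and 0 in HFD, the mast cell and basophil list 5 and 1, and the adipocyte list 15 and 0. The erythroid list summed to 68815 CPM in HFD members and 234 CPM in ND members, led by Hbb-bs in both, and 1397 of 1405 HFD UMIs came from 1 cell. The airway club cell list, led by Scgb1a1, summed to 397 CPM in ND members and 536 CPM in ND alpha-beta T cells. Its sum was 15611 CPM in all other kept ND cells, and Cyp2f2 and Bpifb1 were at 0 in ND members. In HFD it gave 0 UMIs in members and 0.582 CPM in all other kept cells. The part of these RNAs in the levels above was not tested, apart from the comparisons repeated without the 7 members, which are given with the other alternatives.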

How the data were processed

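The 10x libraries of aortic arch cells, 1 per diet, were analysed. The authors deposited raw UMI counts per gene and barcode made with Cell Ranger, with the mm10 genome named in the submitters' processing notes. An aggregated matrix of both libraries was not used. The study's stated filter (200 genes, 200 UMIs and a limit of 30% on mitochondrial transcripts) was applied, which left 5416 of 10234 ND and 2739 of 14225 HFD barcodes, with 27137322 and 17191279 UMIs. The libraries shared 39 barcodes, of which 1 was kept in both and none was a member.

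Each group's UMIs were added up and scaled to 1000000 (CPM), and shares of cells were given as percentages, both with exact 95% intervals (Python 3.11.15, scipy 1.17.1). No significance test was run, since each diet was 1 library. A gene was called at 2-fold or more. A count of 0 was set at 3 UMIs over the group for a fold. Doublets were not removed: Scrublet in scanpy 1.11.5 called 0 ND and 1 HFD cells, and these calls were not used. Leaving out the top 6% of its scores was an alternative. Those scores held 1 of 63 ND members and 1 of 4 HFD members, the latter from the Rora and Il7r part.

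Members, gene lists and comparisons were chosen with earlier results of these data known. Of the 32 gene lists, 3 listed genes had no row. Named genes were those of the rule, up to 6 of each list with the highest CPM and its defining genes at 0, the 20 with the largest ratio of members over alpha-beta T cells by the smaller of both libraries, and the 10 largest rises and falls between diets. Mitochondrial, ribosomal protein and haemoglobin genes were left out of the last. The ratio code was tested on simulated data. A few listed genes are not reported here.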

Additional observations from a re-analysis of the deposited data

Results flagged for a closer look

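Above the mitochondrial limit, data the main comparisons did not use held 12 ND and 26 HFD barcodes that met the rest of the rule. A further 13 ND cells with Cd163l1 held both Pecam1 and Cdh5 and were left out, although all 13 held a gamma-delta constant UMI.

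Trdc, Psap and Fabp4 moved opposite ways between diets in members and in alpha-beta T cells. The log2 ratio of HFD over ND was -2.75 in members and 3.18 in alpha-beta T cells for Trdc, -2.23 and 1.10 for Psap, and -2.12 and 2.56 for Fabp4. The Trdc value in alpha-beta T cells rests on 2 ND and 4 HFD UMIs. Without the mitochondrial limit Fabp4 was higher in HFD members, by 1.08 (0.73 to 1.42) on the scale without mitochondrial, ribosomal protein and haemoglobin genes. The 2.56 in alpha-beta T cells is for kept cells on CPM of all UMIs, so these 2 values differ in cells and scale. The opposite movement among kept cells was not tested, since each diet was 1 library. There, the HFD value of each gene in members was 4 UMIs.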

How the results depend on the processing

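No paired analysis was possible because each diet was 1 library, and for the same reason no library could be left out. Among summary values under alternatives, 124 stayed within the counting interval or 1.5 times of the reported value and 48 did not. Among values of single genes, 428 stayed, 57 moved and 9 reversed. With a 20% mitochondrial limit, 26 ND (0.736%) and 2 HFD members were left, 203 genes could be compared between diets (14 higher, 23 lower in HFD), 14 genes were higher and 0 lower than in alpha-beta T cells, and Trdc and Cd163l1 stood at 982 and 995 CPM in ND. The smaller log2 ratio over alpha-beta T cells then reversed for Ckb and Trdc (-3.96 each), Dgat1 and Arl5c (-2.21 each) and Samsn1 (-3.05), and that limit removed the only HFD member with Trdc. The minimum of 3 UMIs for Rora and Il7r left 2 HFD members, with 44 genes higher and 13 lower in HFD.

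Alternatives on the limit were added after seeing the data. A 50% limit gave 28 HFD members (0.457%) and no limit 30, with 823 genes compared, 9 higher and 86 lower in HFD. Leaving out mitochondrial, ribosomal protein and haemoglobin genes as well gave 726 compared, 21 higher and 37 lower. Lmo4 then reversed to 0.16 and, without those genes, 0.49, and Fabp4 to 0.75 and 1.08. The cause was not tested. A minimum of 20 UMIs gave 92 genes higher in HFD, and a minimum of 100 gave 213 compared and 8 higher.

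Against alpha-beta T cells, 1 gene was lower in place of 2 with 2 UMIs of Cd163l1, with a CD3 chain required, without those genes, with equal weight per cell, with 20 CPM added, with 40 UMIs, and without members holding RNA of other cell types. The ND library alone gave 178 higher and 216 lower, and without such members 168 and 284. Without mitochondrial, ribosomal protein and haemoglobin genes, ND levels were 2183 CPM for Trdc, 989.8 for Tcrg-C1, 2222 for Cd163l1, 2145 for Rora, 2659 for Il7r, 272 for Il17a and 204 for Trac. After thinning, the shares of ND members with these genes were 57.1%, 41.3%, 73%, 69.8%, 69.8%, 9.52% and 7.94%. The HFD values among kept cells rest on 4 members and 20417 UMIs.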
